A study of Mus musculus with 6 samples.

Results

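The genes described here encode the proteins that bring glucose into the cell, break it down to lactate, feed it into the pentose phosphate pathway and store it as glycogen. They were chosen by name, from knowledge of these pathways, with earlier results of these data known. They number 36 of the 38887 gene identifiers that were counted. RNA was measured in neutrophils taken with Ly6G beads from the bone marrow (BM) of naive mice and of LL2 tumor-bearing mice. LL2 is a mouse lung carcinoma line. Per the methods, luciferase-carrying LL2 cells were injected into a vein and formed tumors in the lung, and marrow was flushed from the leg bones. The groups were naive, one-week LL2 and three-week LL2 mice, with 2 libraries each and 6 in all, labelled as separate mice, and no other treatment or allele is named for any group. The labels give neither strain, sex nor age, and the methods list C57BL/6 mice for the study as a whole. Tumors seeded from a cultured line model lesions in the lung and not a tumor that arises there.

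Glycolysis is the main energy route of neutrophils. Hexokinases trap glucose as glucose 6-phosphate, which then has several fates. It can go down glycolysis to pyruvate and lactate, it can enter the oxidative pentose phosphate branch, which makes the NADPH that the neutrophil oxidase consumes, or it can be stored as glycogen, a reserve that neutrophils use at sites poor in glucose. The question put to the data was which of these steps changed in RNA level, and through which isozyme, at week 1 and at week 3 of tumor growth.

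The sequence before the start of 5 of the genes is shown first, because these genes, from different steps, rose or fell at week 3. They were chosen after their values were seen. Each window runs from 250 bases before to 50 bases after a RefSeq transcription start in GRCm38.p6, the build the files call mm10. The windows are chr4:119108495-119108794 on the plus strand for Slc2a1, chrX:74428831-74429130 on the minus strand for G6pdx, chr7:46845554-46845853 on the plus strand for Ldha, chr6:82774405-82774704 on the minus strand for Hk2 and chr6:70792126-70792425 on the minus strand for Rpia. Capitals mark the core letters read by hypoxia-inducible factors, ACGTG or GCGTG, on either strand, so that a match on the other strand reads CACGT or CACGC.
Slc2a1: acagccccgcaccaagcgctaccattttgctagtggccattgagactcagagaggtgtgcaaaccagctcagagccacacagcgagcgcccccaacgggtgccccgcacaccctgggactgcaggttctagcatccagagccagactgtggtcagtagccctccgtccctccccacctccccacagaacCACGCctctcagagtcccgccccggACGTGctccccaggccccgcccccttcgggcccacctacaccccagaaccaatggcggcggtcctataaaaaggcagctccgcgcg
G6pdx: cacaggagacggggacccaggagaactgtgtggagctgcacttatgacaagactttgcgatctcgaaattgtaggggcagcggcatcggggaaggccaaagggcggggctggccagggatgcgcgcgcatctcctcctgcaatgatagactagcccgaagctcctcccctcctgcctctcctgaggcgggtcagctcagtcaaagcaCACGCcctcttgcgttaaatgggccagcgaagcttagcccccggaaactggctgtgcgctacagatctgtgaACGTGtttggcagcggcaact
Ldha: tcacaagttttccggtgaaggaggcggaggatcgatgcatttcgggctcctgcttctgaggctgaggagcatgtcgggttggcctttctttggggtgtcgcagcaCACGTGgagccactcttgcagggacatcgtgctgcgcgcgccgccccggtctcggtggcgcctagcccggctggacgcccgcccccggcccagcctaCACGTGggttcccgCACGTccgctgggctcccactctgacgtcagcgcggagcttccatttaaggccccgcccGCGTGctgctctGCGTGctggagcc
Hk2: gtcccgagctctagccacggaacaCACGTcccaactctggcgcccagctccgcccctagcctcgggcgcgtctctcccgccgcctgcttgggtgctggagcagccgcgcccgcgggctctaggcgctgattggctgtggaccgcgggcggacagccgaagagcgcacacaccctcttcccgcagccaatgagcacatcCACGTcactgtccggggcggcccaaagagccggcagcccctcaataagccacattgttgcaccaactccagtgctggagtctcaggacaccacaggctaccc
Rpia: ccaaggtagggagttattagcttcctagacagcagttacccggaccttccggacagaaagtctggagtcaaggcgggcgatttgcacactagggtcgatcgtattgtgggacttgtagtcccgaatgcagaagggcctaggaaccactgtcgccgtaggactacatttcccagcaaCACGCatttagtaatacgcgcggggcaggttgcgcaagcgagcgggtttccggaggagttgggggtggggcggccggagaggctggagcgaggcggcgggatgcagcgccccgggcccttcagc

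The first 3 genes rose at week 3 and the last 2 fell, and all 5 windows held the core. The windows of Gpi1 and Tpi1, which also rose at week 3, held none. Of the 35 members with a window, 30 held the core in at least 1. A gene with more windows has more chances to match, and this share per gene was not computed for other genes. Of 49 member windows, which belong to 35 of the 36 genes, 38 (77.6%) held it, against 43.8% of all 32817 windows in the table and 60.7% of the 11546 windows of genes tested here. Windows of the same gene can overlap, as for Eno1, so a match can be counted more than once. The E-box CACGTG, which contains ACGTG and is therefore counted in both, stood in 8.2% of member windows and in 10.0% of those of tested genes. The antioxidant response core TGACNNNGC stood in 12.2% and 14.3%. The Ldha window shown held 7 matches to the first core, with each of its 2 CACGTG stretches counted once per strand. Another Ldha window, not shown, held 2. Slc2a1, G6pdx and Hk2 held 2 each and Rpia held 1. These are matches of letters in a short window and no measure of binding.

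Library totals lay between 11994158 and 14127919 counts, and 3 counts corresponded to 0.2123 to 0.2501 CPM, where CPM is the count relative to the library total after that total is multiplied by the scaling factor of edgeR's TMM method. The 12 neutrophil markers summed to 284800 to 348700 CPM in every library. They were not constant one by one. At week 3, 2 of them rose and 3 fell against naive mice, and 5 rose and 3 fell against one-week mice. Summed markers of other cells were low next to those of neutrophils, but some moved with the groups. The 4 early granule genes of promyelocytes that were found, of 5 listed, summed to 41.9 to 50.6 CPM in naive, 48.3 to 84.9 CPM in one-week and 243 to 339 CPM in three-week libraries, and all 4 rose at week 3. The 5 genes of cycling cells summed to 458 to 477, 375 to 442 and 239 to 249 CPM in the same order, and 4 of them fell against naive mice. The 6 B lineage genes summed to 35.6 to 41.3, 32.3 to 41.5 and 7.53 to 9.45 CPM, and all 6 fell at week 3. The 7 erythroid genes were the highest of these, at 1176 to 1312 CPM in naive, 1282 to 1485 CPM in one-week and 561 to 1316 CPM in three-week libraries. Of them 1 fell at week 3 against naive mice. Monocyte and macrophage genes summed to 130 to 159 CPM, T and NK cell genes to 8.60 to 22.5 CPM and megakaryocyte genes to 130 to 199 CPM. Of the 4 megakaryocyte genes 3 fell at week 3 against naive mice. Genes of basophils, eosinophils and mast cells were highest in the one-week libraries, at 40.8 to 44.8 CPM against 17.3 to 26.1 CPM in the others. Trac, a T cell gene, never exceeded 3 counts, and every other marker found did so in at least 1 library. The part of these shifts in the results that follow was not tested, and in bulk RNA fewer cells of a type and less RNA per cell cannot be told apart.

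Of the 36 genes, 35 passed the filter on low counts. The exception was Pfkm, the muscle subunit of phosphofructokinase, with 2 to 11 counts per library. At week 1 against naive mice, 3 genes rose (Hk3, Pgk1 and Eno1), where 4.23% of the 12259 tested genes rose, and 1 fell (Slc16a3), where 3.76% of tested genes fell. The 31 others did not pass, with log2 fold changes from -0.59 to 0.52. The members' median log2 fold change was -0.04 and that of all tested genes was 0.01. Of the 3 rises, 2 rest on genes with near-identical copies, and with the copies' reads added only Hk3 rose. With copies not added, the count of rises was 1 without naive replicate 1 (Pgk1), 1 without naive replicate 2 (Eno1), 0 without one-week replicate 1 and 1 without one-week replicate 2 (Pgk1).

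Three-week LL2 mice gave more calls. Against naive mice 15 members (42.9%) rose, beside 12% of all tested genes, and 3 (8.6%) fell, beside 9.42%. The median log2 fold change was 0.29 for members and 0.03 for all tested genes. Against one-week mice 16 members (45.7%) rose, beside 12.9% of tested genes, and 2 (5.7%) fell, beside 9.57%, with medians of 0.32 and -0.02. These comparisons share the three-week libraries, and those with naive mice share the naive ones, so their counts are not independent. Eno1 rose in both and also at week 1. The 13 others that rose in both did not pass at week 1. They were Slc2a1, Gpi1, Pfkl, Pfkfb3, Aldoa, Aldoc, Tpi1, Gapdh, Pkm, Ldha, G6pdx, Pygl and Pgm2. Another 14 passed in no comparison. Every member called in a comparison had libraries that did not overlap between its groups. With 2 libraries a group this is a weak criterion. It also held for members that were not called, among them Hk2, Gpi1, Gys1 and Tkt at week 1. Its share over all tested genes was not computed. The RNA of all 36 genes together came to 9596 and 10370 CPM in naive, 9524 and 9563 CPM in one-week and 12420 and 12260 CPM in three-week libraries.

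**Figure D1:**
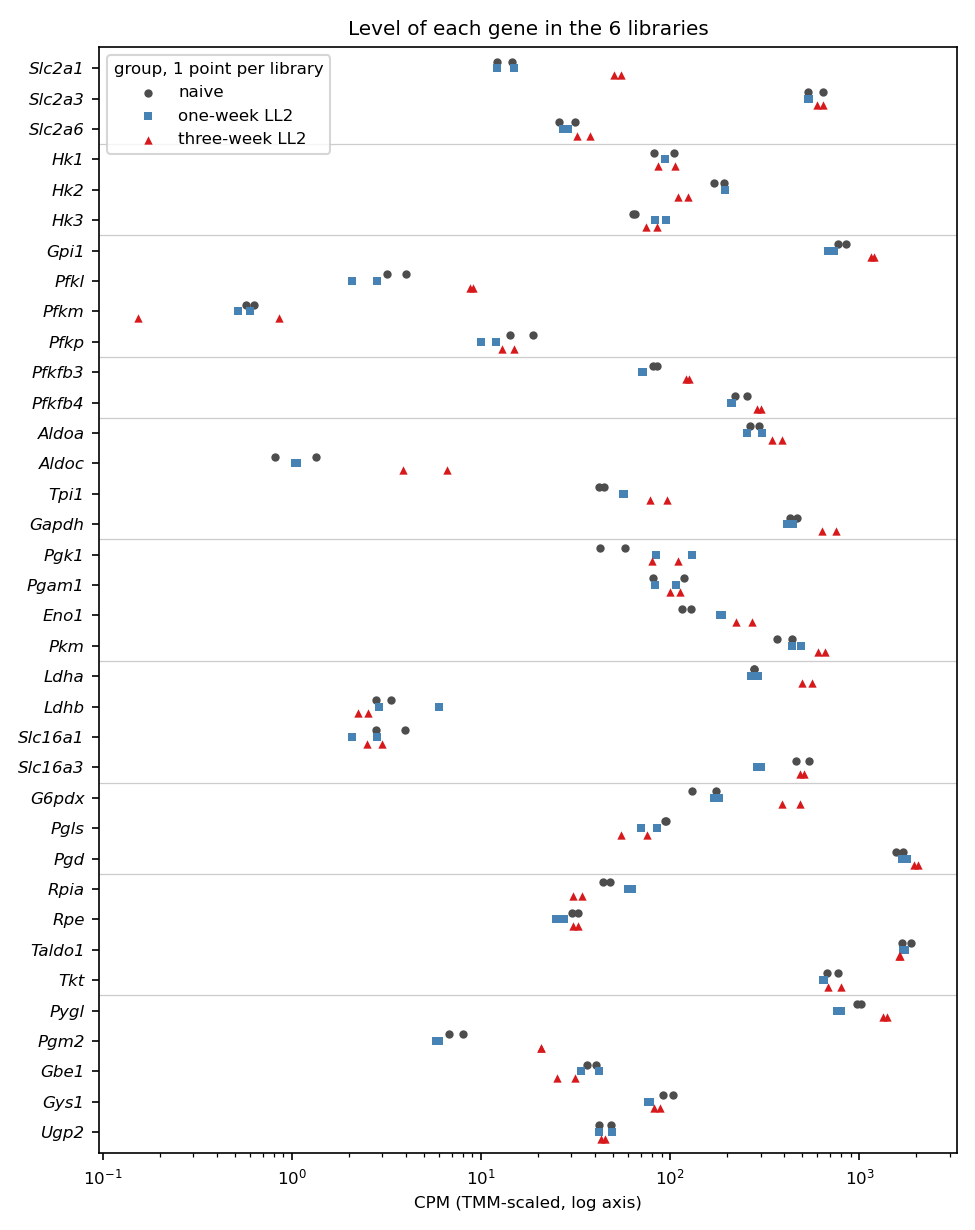
Level of each of the 36 genes in CPM on a log axis, with 1 point per library and groups marked by shape and color; grey lines separate the steps of the pathways. Slc2a1 sits between 12.1 and 14.9 CPM in the naive and one-week libraries and at 50.5 and 54.7 CPM in the three-week ones, while Hk2 is lower at week 3 than in any other library.

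**Figure D2:**
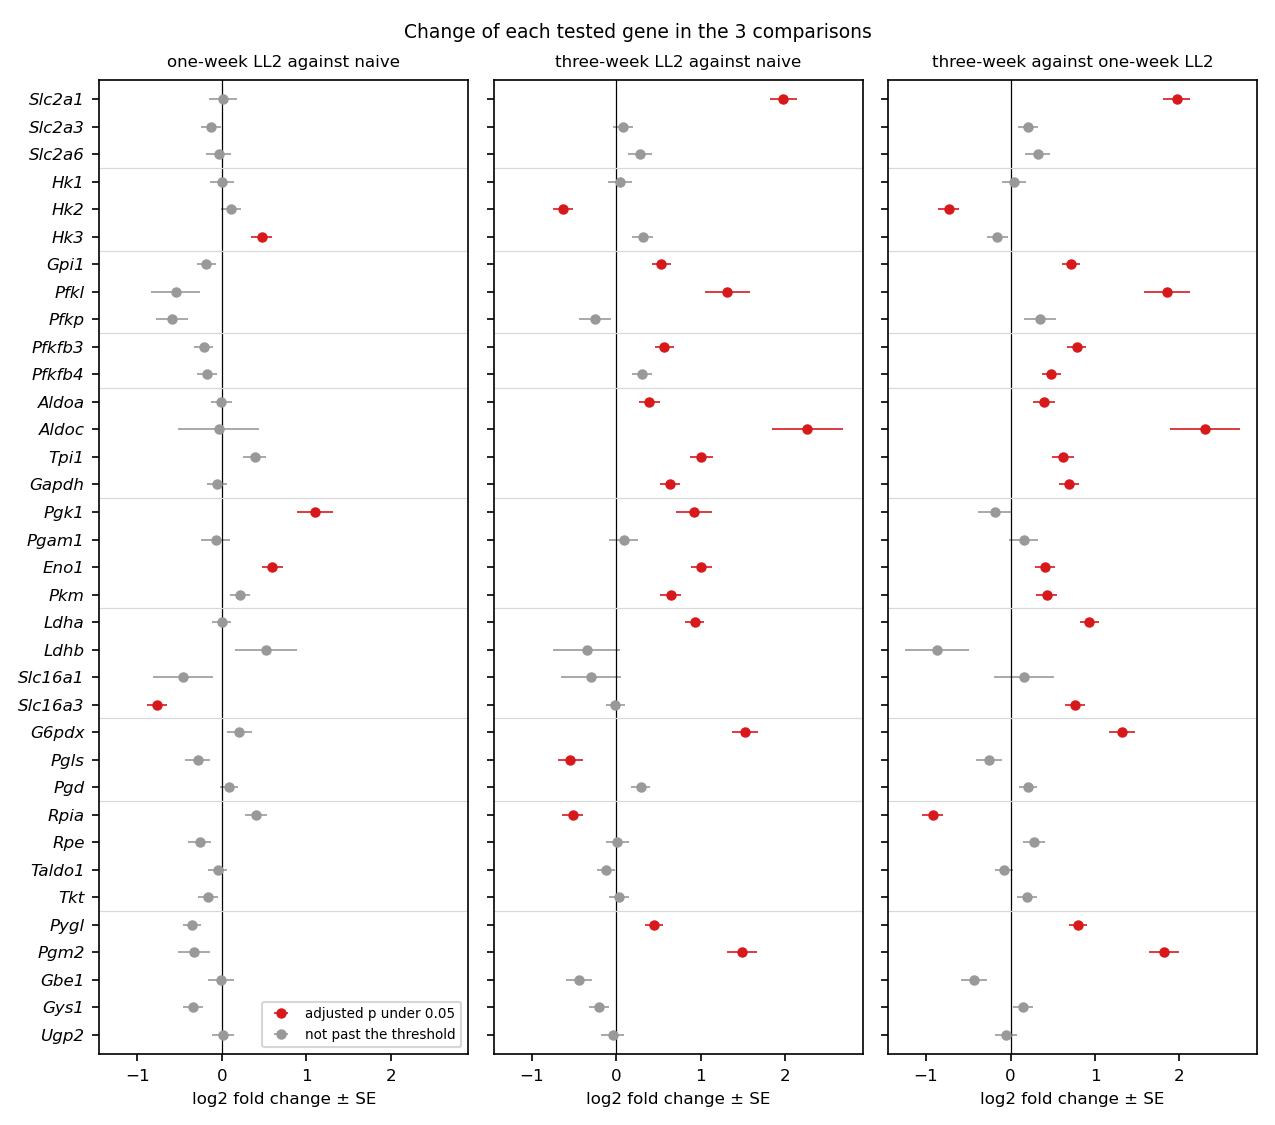
Log2 fold change of each of the 35 tested genes in the 3 comparisons, with bars of 1 standard error (SE) and red points for adjusted p under 0.05. Of the red points 4 lie in the one-week panel and 18 in each of the other panels, most of them to the right of 0.

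Slc2a1 encodes Glut1, a high-affinity glucose carrier of the plasma membrane. It stood at 14.6 and 12.1 CPM in naive, 12.1 and 14.9 CPM in one-week and 54.7 and 50.5 CPM in three-week libraries. The naive and one-week libraries overlapped, and both three-week libraries lay far above them. At week 1 the log2 fold change was 0.01 (SE 0.165, adjusted p = 0.975). At week 3 Slc2a1 rose 3.94-fold against naive mice (log2 fold change 1.98, SE 0.158, adjusted p = 2.96e-06) and 3.90-fold against one-week mice (1.97, SE 0.157, adjusted p = 2.67e-06).

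Slc2a3, which encodes the carrier Glut3, was the more abundant one. Its levels were 533 and 643 CPM in naive, 541 and 537 CPM in one-week and 600 and 640 CPM in three-week mice, and it passed in no comparison. Slc2a6, a carrier of lysosomal membranes, was at 25.9 and 31.4, 28.7 and 27.0, then 32.1 and 37.6 CPM in the same order and did not pass either. Per kilobase of exon, Slc2a1 made up 3.38 to 4.90% of the summed level of these 3 carriers in the naive and one-week libraries and 14.4% and 12.6% in the three-week ones. Slc2a3 held 85.4 to 87.0% before and 76.4% and 77.2% at week 3. The share of Slc2a1 thus differed without overlap while Slc2a3 stayed the main carrier by RNA in each of the 6 libraries.

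The hexokinases moved in different directions. Hk2, a hexokinase that binds the outer mitochondrial membrane, stood at 170 and 192 CPM in naive, 194 and 196 CPM in one-week and 109 and 125 CPM in three-week libraries. It fell at week 3, by 0.63 on the log2 scale against naive mice (SE 0.119, adjusted p = 0.0023) and by 0.73 against one-week mice (SE 0.119, adjusted p = 7.13e-04). Hk3, a hexokinase known from myeloid cells, was at 63.6 and 65.0 CPM, then 95.1 and 83.5 CPM, then 85.4 and 74.8 CPM. Its rise at week 1 was 1.39-fold (log2 fold change 0.47, SE 0.124, adjusted p = 0.0344), and it did not pass when any 1 of the 4 libraries compared was left out (adjusted p up to 0.25). Hk1, the broadly expressed hexokinase, was at 82.4 and 104 CPM in naive, 93.6 and 93.8 CPM in one-week and 106 and 85.9 CPM in three-week libraries, which overlapped throughout.

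Hk2 made up 51.3% and 51.9% of the summed hexokinase level per kilobase in naive, 46.9% and 49.3% in one-week and 33.9% and 40.8% in three-week mice. Hk3 made up 31.2% and 28.5%, then 37.3% and 34.1%, then 43.0% and 39.6%. The libraries of naive and three-week mice did not overlap in either share. In one three-week library Hk3 was the main hexokinase by RNA, and in the other Hk2 was slightly ahead. With the longest transcript in place of all exons Hk2 fell below Hk3 in both three-week libraries, so the order of these isozymes depends on the length used.

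**Figure D3:**
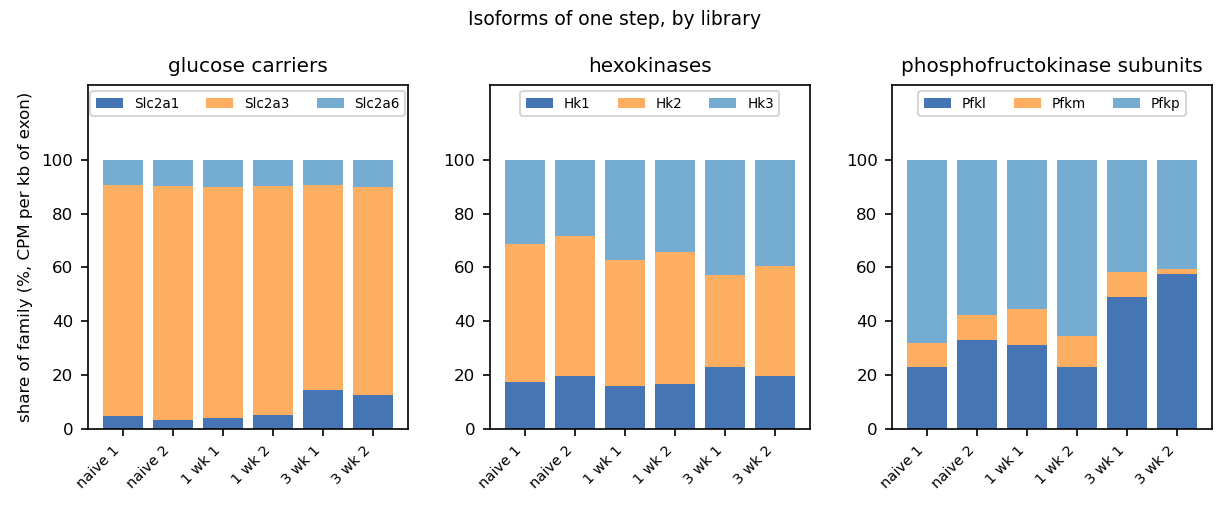
Share of each isozyme in the summed level of its family, in percent of CPM per kilobase of exon, for glucose carriers, hexokinases and phosphofructokinase subunits, with 1 bar per library (1 wk and 3 wk are the one-week and three-week LL2 mice). In three-week libraries the Slc2a1, Hk3 and Pfkl parts are larger and the Slc2a3, Hk2 and Pfkp parts smaller than in naive libraries.

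Gpi1, the isomerase that follows hexokinase, was among the more abundant members. It stood at 768 and 848 CPM in naive, 684 and 737 CPM in one-week and 1192 and 1146 CPM in three-week libraries. At week 3 it rose 1.45-fold against naive mice (log2 fold change 0.53, SE 0.111, adjusted p = 0.00406), though not without naive replicate 1 (adjusted p = 0.0507), and 1.64-fold against one-week mice (0.72, SE 0.111, adjusted p = 4.92e-04).

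Phosphofructokinase is the committed and most regulated step of glycolysis. Its liver subunit Pfkl was low, at 3.16 and 4.01 CPM in naive, 2.80 and 2.09 CPM in one-week and 8.76 and 9.07 CPM in three-week libraries. Both three-week values were above all others, a rise of 2.48-fold against naive mice (log2 fold change 1.31, SE 0.266, adjusted p = 0.00348) and of 3.62-fold against one-week mice (1.86, SE 0.273, adjusted p = 3.41e-04). The platelet subunit Pfkp, at 18.9 and 14.2, 10.0 and 11.9, then 15.0 and 12.9 CPM, did not pass as tested here. By edgeR with no filter it was called lower at week 1 (log2 fold change -0.59, adjusted p = 0.0326). Pfkp shares 748 exon bases with Pitrm1 on the opposite strand, and the strand setting of the counting is not given in the sources used here. Per kilobase, Pfkl made up 22.9 to 32.9% of the 3 subunits in the naive and one-week libraries and 48.9% and 57.4% in the three-week ones, where it passed Pfkp (41.6% and 40.7%).

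Pfkfb3 and Pfkfb4 encode bifunctional enzymes that set the level of fructose 2,6-bisphosphate, the strongest activator of phosphofructokinase. Pfkfb3 was at 84.6 and 81.2 CPM in naive, 71.4 and 71.3 CPM in one-week and 125 and 121 CPM in three-week libraries. It rose 1.48-fold at week 3 against naive mice (log2 fold change 0.57, SE 0.112, adjusted p = 0.00289) and 1.72-fold against one-week mice (0.78, SE 0.112, adjusted p = 2.80e-04). Pfkfb4, the larger part of the pair at 78.8 to 83.0% of their level per kilobase, was at 220 and 256, 213 and 209, then 301 and 288 CPM. Its three-week libraries lay above all others, but as tested here it passed only against one-week mice (log2 fold change 0.48, SE 0.115, adjusted p = 0.00891). That call was lost without either one-week replicate and with scaling by library size alone. Against naive mice Pfkfb4 was called higher by edgeR with offsets for length and GC content (log2 fold change 0.34, adjusted p = 0.0452).

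All 4 genes of the middle steps rose at week 3 in both comparisons, and none passed at week 1. Aldoa, the main aldolase, was at 265 and 296 CPM in naive, 254 and 305 CPM in one-week and 347 and 388 CPM in three-week libraries. This was the smallest rise against naive mice, 1.31-fold (log2 fold change 0.39, SE 0.125, adjusted p = 0.0413), and it was lost under 9 of 16 alternatives (adjusted p up to 0.267), among them those without naive replicate 1 or 2, one-week replicate 1 or 2 or three-week replicate 2. Against one-week mice its log2 fold change was 0.40 (SE 0.125, adjusted p = 0.0372), lost under 5 alternatives (adjusted p up to 0.34).

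Aldoc, the aldolase best known from brain, was near the detection limit, at 1.34 and 0.82 CPM in naive, 1.07 and 1.04 CPM in one-week and 3.88 and 6.61 CPM in three-week libraries. It had the largest fold of the members, 4.81-fold against naive mice (log2 fold change 2.27, SE 0.423, adjusted p = 0.00202) and 4.93-fold against one-week mice (2.30, SE 0.417, adjusted p = 0.00154). Aldoa still held 98.5% or more of the aldolase level per kilobase in every library.

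Tpi1, the triose phosphate isomerase, was at 41.9 and 44.8 CPM in naive, 56.3 and 57.1 CPM in one-week and 78.1 and 96.6 CPM in three-week libraries. The groups followed each other without overlap. The step at week 1 did not pass, and at week 3 Tpi1 was 2.01-fold above naive (log2 fold change 1.01, SE 0.133, adjusted p = 1.77e-04) and 1.54-fold above one-week mice (0.62, SE 0.131, adjusted p = 0.0041). It shares 34 exon bases with Spsb2 on the opposite strand. Gapdh, the dehydrogenase that makes NADH in glycolysis and a common reference gene, was at 428 and 466, 416 and 445, then 753 and 636 CPM. It rose 1.55-fold against naive mice (log2 fold change 0.63, SE 0.119, adjusted p = 0.00212) and 1.61-fold against one-week mice (0.69, SE 0.119, adjusted p = 0.00113).

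Several payoff genes, and Gapdh before them, have near-identical copies elsewhere in the genome. Processed pseudogenes and other loci with at least 95% identity carried counts for 4 members, so that the authors' assignment of reads between gene and copy can move a value. Pgk1, the first ATP-making enzyme of glycolysis, had 6788 counts over the 6 libraries, and Pgk1-rs7, identical to it over 1255 bases, had 23149. Eno1, the main enolase, had 14652 counts and its copy Gm4735, at 99.62% identity, had 7831. Pgam1, the mutase between them, had 7915 counts and the identical Pgam1-ps2 had 32189. Gapdh had 41321 counts, and its largest copy Gm3839 had 5559.

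As counted on its own, Pgk1 was at 57.4 and 42.6 CPM in naive, 130 and 84.5 CPM in one-week and 110 and 79.8 CPM in three-week libraries. It rose 2.15-fold at week 1 (SE 0.209 on the log2 scale, adjusted p = 0.00764) and 1.89-fold at week 3 (0.92, SE 0.209, adjusted p = 0.00714). The one-week call was lost without naive replicate 2 or one-week replicate 1, and the three-week call without naive replicate 2 (adjusted p = 0.0845) or with DESeq2 on all libraries, though not with DESeq2 on the groups compared. Pgk1 with its copies stood at 290 and 322, 359 and 378, then 463 and 453 CPM. For that sum the one-week log2 fold change was 0.27 (SE 0.11, adjusted p = 0.159), while the three-week one was 0.58 (SE 0.11, adjusted p = 0.00224). The share of Pgk1 itself in the sum ranged from 13.2% in a naive to 36.3% in a one-week library.

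Eno1 alone was at 116 and 129 CPM in naive, 183 and 187 CPM in one-week and 222 and 269 CPM in three-week libraries, each group above the one before. It rose 1.51-fold at week 1 (log2 fold change 0.60, SE 0.125, adjusted p = 0.0125) and 2.01-fold at week 3 (1.01, SE 0.125, adjusted p = 1.18e-04), and 1.33-fold between them (0.41, SE 0.123, adjusted p = 0.0303). Its one-week call was lost without naive replicate 1 or either one-week replicate, and the call between week 1 and week 3 without either one-week replicate or three-week replicate 2 and with scaling by library size alone (adjusted p up to 0.238). Added to its copy it stood at 232 and 242, 242 and 266, then 333 and 391 CPM. The summed log2 fold change was 0.10 at week 1 (SE 0.118, adjusted p = 0.668), 0.61 at week 3 against naive mice (SE 0.119, adjusted p = 0.00253) and 0.51 against one-week mice (SE 0.118, adjusted p = 0.00744). In the sum, Eno1 itself held 49.9% and 53.2% in naive and 75.4% and 70.3% in one-week libraries.

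Pgam1 was at 118 and 81.1 CPM in naive, 83.3 and 107 CPM in one-week and 113 and 99.3 CPM in three-week libraries, with overlap throughout, and did not pass with or without its copy. Gapdh with its copies rose at week 3 as it did alone (log2 fold change 0.68, SE 0.112, adjusted p = 7.80e-04). Pkm, the pyruvate kinase of most tissues, had no copy with counts. It was at 365 and 439 CPM in naive, 443 and 490 CPM in one-week and 656 and 601 CPM in three-week libraries. Pkm rose at week 3, 1.56-fold against naive mice (log2 fold change 0.65, SE 0.123, adjusted p = 0.00237) and by less against one-week mice (log2 fold change 0.43, SE 0.123, adjusted p = 0.0238). The second of these was lost without one-week replicate 1 or 2 or three-week replicate 1, and under scaling by library size alone (adjusted p up to 0.212).

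**Figure D4:**
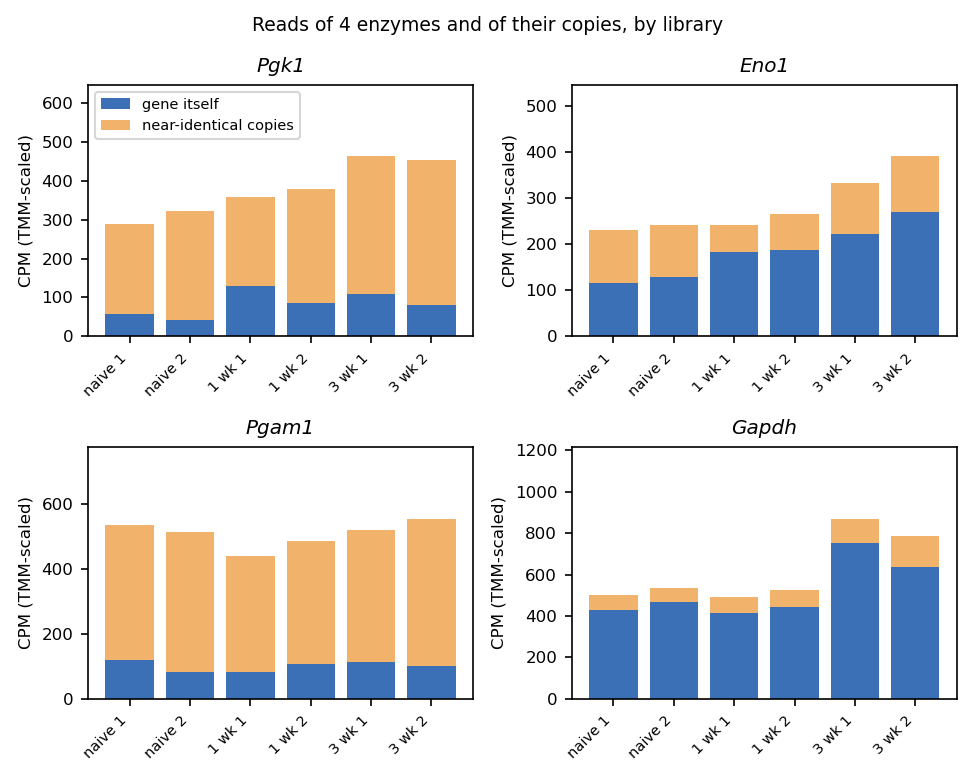
CPM of Pgk1, Eno1, Pgam1 and Gapdh (blue) and of their near-identical copies (orange), stacked, with 1 bar per library (1 wk and 3 wk are the one-week and three-week LL2 mice). The whole bars of Pgk1 reach 290 and 322 CPM in naive and 463 and 453 CPM in three-week libraries, and the blue part of Eno1 grows from naive to one-week libraries far more than its whole bar does.

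Lactate is made by tetramers of the Ldha and Ldhb subunits and leaves the cell through monocarboxylate carriers. Ldha, the subunit that favors lactate, was at 277 and 279 CPM in naive, 267 and 289 CPM in one-week and 499 and 561 CPM in three-week libraries. It was 1.91-fold higher at week 3 than in naive mice (log2 fold change 0.93, SE 0.113, adjusted p = 9.88e-05) and likewise 1.91-fold higher than in one-week mice (0.93, SE 0.113, adjusted p = 8.38e-05). Ldhb was low, at 3.32 and 2.78, 2.87 and 5.96, then 2.25 and 2.54 CPM, and did not pass. Ldha held 95.8 to 99.1% of both subunits per kilobase.

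Slc16a3 encodes Mct4, the lactate exporter of glycolytic cells, and was the only member that fell at week 1. It was at 543 and 464 CPM in naive, 289 and 301 CPM in one-week and 488 and 512 CPM in three-week libraries. The one-week libraries lay below all others, 1.71-fold under naive mice (log2 fold change -0.77, SE 0.116, adjusted p = 0.00216). At week 3 it was 1.69-fold above one-week mice (log2 fold change 0.76, SE 0.116, adjusted p = 4.49e-04) and overlapped naive mice. Both calls held under all 16 alternatives. Slc16a1, which encodes Mct1, was at 3.95 and 2.78, 2.80 and 2.09, then 2.48 and 3.00 CPM and did not pass. By RNA per kilobase Slc16a3 made up 98.9 to 99.4% of the pair.

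In the oxidative pentose phosphate branch, G6pdx carries out the first, NADPH-yielding and rate-limiting step. It stood at 131 and 174 CPM in naive, 171 and 180 CPM in one-week and 389 and 486 CPM in three-week libraries. The naive and one-week libraries overlapped and both three-week libraries were at over 2 times any of them. G6pdx was 2.88-fold higher than in naive mice (log2 fold change 1.52, SE 0.15, adjusted p = 1.58e-05) and 2.50-fold higher than in one-week mice (1.32, SE 0.149, adjusted p = 4.77e-05). It shares 418 exon bases with Ikbkg on the opposite strand, whose counts came to 6.39% of those of G6pdx.

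The next enzymes of that branch did not follow. Pgls, the lactonase, was at 94.0 and 95.1 CPM in naive, 70.3 and 84.7 CPM in one-week and 54.9 and 75.0 CPM in three-week libraries. It fell by 0.54 on the log2 scale at week 3 against naive mice (SE 0.152, adjusted p = 0.0221), a call lost without naive replicate 1, naive replicate 2 or three-week replicate 1 (adjusted p up to 0.215). Pgd, which makes the second NADPH, was one of the most abundant members, at 1566 and 1695, 1776 and 1683, then 2040 and 1947 CPM. Its three-week libraries lay above all others, but it did not pass in any comparison.

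Of the non-oxidative branch, which returns pentoses to glycolysis, only Rpia passed. Rpia, the isomerase that makes ribose 5-phosphate, was at 44.2 and 48.3 CPM in naive, 59.7 and 62.7 CPM in one-week and 30.5 and 34.2 CPM in three-week libraries. The one-week libraries were the highest and the three-week ones the lowest. The step at week 1 did not pass as tested here, but was called by edgeR with scaling by library size alone (log2 fold change 0.46, adjusted p = 0.0487). At week 3 the log2 fold change was -0.52 against naive mice (SE 0.128, adjusted p = 0.0117) and -0.92 against one-week mice (SE 0.127, adjusted p = 2.08e-04). The first was lost without naive replicate 2 or three-week replicate 1 (adjusted p up to 0.107).

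Rpe, the epimerase, was at 32.5 and 30.2 CPM in naive, 27.3 and 24.95 CPM in one-week and 30.8 and 32.6 CPM in three-week libraries. Taldo1, the transaldolase, was at 1687 and 1862, 1731 and 1697, then 1616 and 1640 CPM. Tkt, the transketolase, was at 675 and 767, 642 and 650, then 795 and 686 CPM. None of these passed. Taldo1 was the member with the highest level per kilobase in naive mice, 817 ± 57.0 CPM per kilobase (SD, n = 2), followed by Pgd at 253 ± 14.1 and Pygl at 144 ± 4.40. The summed CPM of the non-oxidative genes was 2438 and 2708 in naive, 2460 and 2435 in one-week and 2472 and 2393 in three-week libraries, and that of the oxidative genes was 1791 and 1964, 2018 and 1947, then 2484 and 2508. The three-week libraries were thus above all others for the oxidative sum and within the range of the others, or below it, for the non-oxidative sum.

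Among the glycogen genes, Pygl, the phosphorylase that releases glucose 1-phosphate from glycogen, was abundant and rose at week 3. It stood at 973 and 1015 CPM in naive, 801 and 761 CPM in one-week and 1393 and 1329 CPM in three-week libraries. The groups did not overlap, with the one-week libraries lowest. Pygl was 1.37-fold higher at week 3 than in naive mice (log2 fold change 0.45, SE 0.107, adjusted p = 0.0089), though not without naive replicate 1 (adjusted p = 0.0679), and 1.74-fold higher than in one-week mice (0.80, SE 0.107, adjusted p = 1.70e-04). At week 1 it did not pass as tested here, but it was called lower under 4 alternatives, which were DESeq2 on all libraries (log2 fold change -0.37, adjusted p = 0.0141), DESeq2 on the groups compared (adjusted p = 0.0189), edgeR with no filter (adjusted p = 0.0444) and edgeR with offsets for length and GC content (adjusted p = 0.0448).

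Pgm2, a phosphomutase that acts mainly on pentose phosphates, was at 7.98 and 6.79 CPM in naive, 5.80 and 5.96 CPM in one-week and 20.7 and 20.8 CPM in three-week libraries. It was 2.81-fold above naive (log2 fold change 1.49, SE 0.176, adjusted p = 7.72e-05) and 3.53-fold above one-week mice (1.82, SE 0.178, adjusted p = 1.63e-05). The symbol follows the current annotation, in which Pgm2 is the gene on chromosome 5 (ENSMUSG00000029171) and Pgm1 that on chromosome 4. Older symbols are exchanged. Pgm1, the phosphoglucomutase that links glucose 1-phosphate with glucose 6-phosphate, did not pass in any comparison.

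The 3 members that build glycogen passed in no comparison as tested here. Gbe1, the branching enzyme, was at 36.1 and 40.4 CPM in naive, 41.9 and 33.8 CPM in one-week and 25.1 and 31.2 CPM in three-week libraries. It was lowest at week 3 without passing. By edgeR it was called lower against naive mice with DESeq2 size factors (log2 fold change -0.47, adjusted p = 0.0462) and with scaling by library size alone (-0.59, adjusted p = 0.0215). The same held with no filter (-0.47, adjusted p = 0.0205) and with the groups compared only (-0.48, adjusted p = 0.0498). Against one-week mice it was called lower with scaling by library size alone (-0.63, adjusted p = 0.0131) and with no filter (-0.46, adjusted p = 0.0221). Gys1, the muscle-type glycogen synthase, was at 103 and 91.8, 76.1 and 78.0, then 81.7 and 88.5 CPM. Ugp2, which makes UDP-glucose, was at 41.9 and 48.8, 49.3 and 42.2, then 45.1 and 43.1 CPM.

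Genes of the same pathways outside the 36 were counted next. Of 57 other isozymes and carriers, 29 were tested. At week 1 none rose and 2 (6.9%) fell, beside 4.23% and 3.76% of all tested genes. At week 3 against naive mice 4 (13.8%) rose and 2 (6.9%) fell, beside 12% and 9.42%, and against one-week mice 4 (13.8%) rose and 2 (6.9%) fell, beside 12.9% and 9.57%, so that the shares at week 3 were near or below those of all genes. The median log2 fold changes were 0.23, 0.08 and -0.04 in that order. Those with the smallest adjusted p were Ppp1r3d, Pfkfb2, Gyg and Ldhc. Ppp1r3d, a subunit that brings a phosphatase to glycogen, was at 53.4 and 62.5 CPM in naive, 52.5 and 50.7 CPM in one-week and 122 and 115 CPM in three-week libraries, 2.04-fold above naive mice (adjusted p = 8.67e-05). Pfkfb2, a further enzyme of fructose 2,6-bisphosphate, rose 4.72-fold against naive mice, from 2.53 and 2.05 to 11.2 and 10.5 CPM (adjusted p = 8.47e-05). Gyg, the primer protein of glycogen, rose 1.76-fold, from 76.1 and 105 to 166 and 152 CPM (adjusted p = 0.00313). The groups of these 3 did not overlap at week 3. Ldhc, the lactate dehydrogenase subunit known from testis, fell from 4.74 and 2.29 to 0.93 and 1.00 CPM (log2 fold change -1.86, adjusted p = 0.00858).

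Of 32 regulators and partners of the pathway, 26 were tested. At week 1, 1 (3.85%) rose and 1 (3.85%) fell, near the 4.23% and 3.76% of all tested genes. At week 3 against naive mice 8 (30.8%) rose and 1 (3.85%) fell, beside 12% and 9.42%, and against one-week mice likewise 8 rose and 1 fell, beside 12.9% and 9.57%. Their medians were -0.002, 0.11 and 0.24 on the log2 scale. Hif1a, the oxygen-regulated subunit of hypoxia-inducible factor 1, was at 34.0 and 29.5 CPM in naive, 24.5 and 20.8 CPM in one-week and 48.4 and 46.5 CPM in three-week libraries. It was lowest at week 1, which did not pass (log2 fold change -0.48, adjusted p = 0.0526), and rose at week 3 1.49-fold against naive (adjusted p = 0.00941) and 2.09-fold against one-week mice (adjusted p = 1.48e-04). Egln3, a prolyl hydroxylase of that factor, rose 2.04-fold against naive mice, from 15.5 and 12.4 to 24.6 and 32.2 CPM (adjusted p = 0.00147). Mpc2, a subunit of the mitochondrial pyruvate carrier, was highest at week 1, at 114 and 98.5 CPM against 72.0 and 75.0 CPM in naive and 59.4 and 70.0 CPM in three-week libraries, a rise of 1.44-fold over naive mice (adjusted p = 0.0245). Gsk3b, a kinase that restrains glycogen synthase, was lowest at week 1, at 102 and 109 CPM against 217 and 174 CPM in naive and 150 and 141 CPM in three-week libraries (log2 fold change at week 1 -0.89, adjusted p = 0.00175). At week 3 it was still below naive mice (-0.42, adjusted p = 0.0312) and above one-week mice (0.47, adjusted p = 0.0186).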

How the data were processed

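RNA of Ly6G-selected BM neutrophils (purity over 95% per the labels) was sequenced as single-end Illumina reads after total RNA library preparation. The authors aligned reads with RSEM (1.2.31 in the submitters' processing notes, with Bowtie2, while the methods name another version) to mm10 and the Ensembl transcriptome, kept samples with enough aligned reads, and deposited gene-level expected counts in whole numbers, not scaled to each other. RSEM divides reads that fit several genes, which bears on genes with copies. Strandedness of the counting is not given in the sources used here. Copies were sought with blastn 2.17.0 (at least 95% identity over 200 bases and 50% of the copy).

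Of 38887 identifiers, 37570 matched GENCODE annotation of GRCm38. Counts were filtered with filterByExpr, which left 12259 genes, scaled by TMM and compared with edgeR 4.0.16 (R 4.3.3, quasi-likelihood F test) in a single model that held all 6 libraries. Benjamini-Hochberg adjustment ran over all tested genes, and adjusted p under 0.05 was called. SE was the absolute log2 fold change divided by the square root of F. The p-values set each difference against a spread estimated from all 6 libraries, with information shared between genes. With 2 libraries a group, that spread is poorly known for any single gene. Levels per kilobase used the union of exons. Intervals from counting were not used, since replicate spread exceeded counting error. The test was tried on simulated counts in which every gene had the same dispersion. That is simpler than the data, and no conclusion is drawn from it here.

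The 36 members, the other lists and the marker lists were chosen with earlier results of these data known. Levels are given for each member, and test values for those called and for Slc2a1. Of the other lists the 4 genes with the smallest adjusted p are named. Alternatives were DESeq2 1.42.0, other scalings, filters and thresholds, offsets for length and GC content, copies summed, a replicate block and each library left out. The replicate numbers denote different mice.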

Additional observations from a re-analysis of the deposited data

Results flagged for a closer look

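For 18 genes the effect at week 3 differed from the effect at week 1, each against naive mice. The naive libraries cancel in that difference, which is therefore the comparison of three-week with one-week mice by edgeR's quasi-likelihood test. The difference in log2 fold change was positive for Aldoc (2.30), Slc2a1 (1.97), Pfkl (1.86), Pgm2 (1.82), G6pdx (1.32), Ldha (0.93), Pygl (0.80), Pfkfb3 (0.78), Slc16a3 (0.76), Gpi1 (0.72), Gapdh (0.69), Tpi1 (0.62), Pfkfb4 (0.48), Pkm (0.43), Eno1 (0.41) and Aldoa (0.40). It was negative for Rpia (-0.92) and Hk2 (-0.73). Slc16a3 fell at week 1 and overlapped naive mice at week 3, and Rpia had its highest libraries at week 1 and its lowest at week 3.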

How the results depend on the processing

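The recomputed log2 fold changes counted next were those of members called in the comparison concerned, and that of Slc2a1 at week 1. Calls gained under an alternative by members not called in a comparison are therefore left out. Among these are the gained calls given above for Pfkp, Pygl, Rpia, Gbe1 and Pfkfb4. Of 656 recomputed log2 fold changes, 606 kept their direction and their side of the threshold, 45 lost the call and 5 turned in sign. All 5 belong to Slc2a1 at week 1, which was near 0 and not called: -0.0059 with DESeq2 on all libraries, -0.0064 with DESeq2 size factors, -0.04 with offsets for length and GC content, and from -0.15 to 0.16 when a library was left out (below 0 at -0.11 without naive replicate 2 and -0.15 without one-week replicate 2).

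The count of members that rose at week 1, 3, became 1 with copies summed, 1 at adjusted p under 0.01, and 0 to 3 when a library was left out. That of members that fell, 1, became 2 with DESeq2 on all libraries, with DESeq2 on the groups compared and with offsets for length and GC content, and 3 with no filter. At week 3 against naive mice the 3 that fell became 1 at adjusted p under 0.01, 1 without naive replicate 2 or three-week replicate 1, and from 1 to 4 over the left-out libraries, and the 15 that rose became 12 to 15. Against one-week mice the 16 that rose became 12 to 16 and the 2 that fell 2 to 3. Asking for over 5-fold left 0 in each of the 6 counts. Scaling by library size alone, which put the median log2 fold change of all genes at -0.112 at week 3 against naive mice (0.0346 with TMM) and at -0.225 against one-week mice (-0.0226 with TMM), gave 890 higher and 1675 lower genes and 856 and 2136, in place of 1471 and 1155 and of 1586 and 1173. Members then rose in 14 and 12 cases and fell in 4 and 3. At week 1 it gave 575 and 263 in place of 518 and 461, and the offsets gave 418 and 677. The cause of these shifts was not tested.

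Replicate numbers in the labels are shared between groups but denote different mice, and deviations of same-numbered libraries correlated at 0.0101 to 0.0379 over genes. With the replicate block no member's call changed, at 3 and 1, 15 and 3, and 16 and 2 members higher and lower. With 2 libraries a group, small changes cannot be separated from spread, and Pfkm, at up to 11 counts, was not tested.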

Other observations

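Beyond the genes named above, the lists held others that passed, chosen here after their values were seen. Pgm2l1, which makes glucose 1,6-bisphosphate, fell at week 1 and at week 3 against naive mice, from 14.8 and 13.9 CPM to 8.47 and 7.37 and to 8.83 and 5.61 CPM (log2 fold changes -0.85 and -0.99, adjusted p = 0.0302 and 0.00638 by edgeR). Ppp1r3b, another subunit that targets a phosphatase to glycogen, fell at week 1, from 27.5 and 16.2 to 10.6 and 9.53 CPM (log2 fold change -1.12, adjusted p = 0.00983), and stood at 20.5 and 18.1 CPM at week 3. Slc2a9, a carrier of urate and hexoses, rose 1.66-fold at week 3 against naive mice (adjusted p = 0.00502).

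Pdk1, a kinase that switches off pyruvate dehydrogenase, was low and rose 2.83-fold at week 3, from 3.08 and 2.37 CPM in naive to 6.90 and 8.61 CPM (adjusted p = 0.00197). Emb, a partner protein of lactate carriers, rose 1.48-fold, from 186 and 196 to 289 and 278 CPM (adjusted p = 0.00342). Arnt, the constant subunit of hypoxia-inducible factors, rose 1.53-fold at week 3, from 37.8 and 52.4 to 79.0 and 58.6 CPM (adjusted p = 0.0225), with a wide spread between libraries. Egln2, a prolyl hydroxylase like Egln3, rose 1.46-fold (adjusted p = 0.00742).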
